A study of Rattus norvegicus with 3 samples.

Results

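Expression of the Wnt signalling family was described in the motor cortex of normal rats: the Wnt ligands, their frizzled receptors, the co-receptors Lrp5 and Lrp6, the secreted frizzled-related proteins (Sfrp), the Dickkopf proteins (Dkk) and the R-spondins (Rspo). Members were chosen by a rule on gene names, set with earlier results of these data known, and 44 of the 30957 genes in the tables matched. They are 19 Wnt ligands, 9 frizzled receptors, 2 co-receptors, 4 Sfrp genes, 6 Dickkopf entries and 4 R-spondins. The Dickkopf entries include Dkkl1 and 2 gene IDs that both carry the symbol Dkk1, so the 44 genes have 43 symbols. The libraries came from 3 male Sprague-Dawley rats, an outbred stock, numbered 68, 39 and 32 in the labels. All belonged to a single untreated group called normal at 8 weeks, a time the labels do not define further, and no second group was analysed here. Each animal gave 1 mRNA library from motor cortex, a tissue of mixed neurons, glia and vessels. In such bulk samples, fewer cells of a type and less RNA per cell cannot be told apart.

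Wnt ligands are secreted, lipid-modified glycoproteins. Binding to a frizzled receptor together with Lrp5 or Lrp6 disables the complex of Axin, Apc, Gsk3 and casein kinase that marks beta-catenin for destruction, and beta-catenin then acts with TCF/LEF factors on target genes. Sfrp proteins bind Wnts through a frizzled-like domain, Dkk1 blocks Lrp5 and Lrp6, and R-spondins raise receptor levels by removing the ubiquitin ligases Rnf43 and Znrf3 through Lgr receptors. In the brain these signals act on synapse formation, dendrite growth, axon guidance and the blood-brain barrier.

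Values are FPKM (fragments per kilobase of gene, scaled to the size of the library), so that levels of different genes can be compared per length. Depth was inferred as 17670986, 15460924 and 16550241 fragments in animals 68, 39 and 32, so that 1 FPKM rested on 17.7, 15.5 and 16.6 fragments per kilobase. Pan-neuronal markers (6 of 6 found) summed to 1568, 1986 and 2323 FPKM in these animals, and cortical glutamatergic markers (6 of 6) to 1230, 1418 and 1369 FPKM. The labelled tissue was therefore matched by neuronal genes in every library. Animal 68 had the highest summed levels of glial and choroid plexus genes. The choroid plexus list (7 of 8 found) summed to 7528, 633 and 11.6 FPKM, and none of those 7 genes was at 0 in every library. Most of each sum was Ttr, with 7264, 615 and 8.36 FPKM. All 7 genes were lowest in animal 32, intermediate in animal 39 and highest in animal 68.

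Promoters from RefSeq (build GRCr8, 250 bases before to 50 after the start of the gene) were matched for 28 of the 43 symbols, all except Dkk2, Dkk3, Dkk4, Fzd2, Fzd3, Fzd6, Lrp5, Lrp6, Rspo2, Rspo4, Sfrp1, Sfrp4, Wnt5b, Wnt7b and Wnt10b. Those of 5 members on which the results below turn are printed 5′ to 3′: the leading ligand Wnt2, the ligands Wnt16 and Wnt10a, which were lower in animal 68 than in the other animals, and the receptors Fzd1 and Fzd7, which were higher there. Capitals mark the core of the TCF/LEF binding motif, searched as CTTTGA on both strands.
Wnt2 (chr4:47340235-47340534, minus strand): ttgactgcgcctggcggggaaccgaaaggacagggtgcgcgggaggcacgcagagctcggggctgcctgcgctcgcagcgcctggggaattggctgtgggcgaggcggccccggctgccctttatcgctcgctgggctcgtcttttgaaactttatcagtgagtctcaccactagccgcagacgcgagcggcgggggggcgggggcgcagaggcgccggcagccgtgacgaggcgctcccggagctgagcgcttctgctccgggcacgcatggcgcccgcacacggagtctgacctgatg
Wnt16 (chr4:51786478-51786777, plus strand): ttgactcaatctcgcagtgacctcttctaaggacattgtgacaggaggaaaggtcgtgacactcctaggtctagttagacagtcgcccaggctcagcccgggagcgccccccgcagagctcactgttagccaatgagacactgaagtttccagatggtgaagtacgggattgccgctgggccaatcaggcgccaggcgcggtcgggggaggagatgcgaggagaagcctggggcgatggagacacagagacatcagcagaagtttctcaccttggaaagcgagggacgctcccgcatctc
Wnt10a (chr9:83798344-83798643, plus strand): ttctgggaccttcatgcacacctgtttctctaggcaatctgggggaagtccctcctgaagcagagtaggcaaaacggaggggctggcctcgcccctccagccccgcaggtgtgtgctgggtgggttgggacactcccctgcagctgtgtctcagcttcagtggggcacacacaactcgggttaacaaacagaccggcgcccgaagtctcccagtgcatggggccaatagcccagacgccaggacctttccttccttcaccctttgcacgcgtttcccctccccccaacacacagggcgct
Fzd1 (chr4:30264824-30265123, plus strand): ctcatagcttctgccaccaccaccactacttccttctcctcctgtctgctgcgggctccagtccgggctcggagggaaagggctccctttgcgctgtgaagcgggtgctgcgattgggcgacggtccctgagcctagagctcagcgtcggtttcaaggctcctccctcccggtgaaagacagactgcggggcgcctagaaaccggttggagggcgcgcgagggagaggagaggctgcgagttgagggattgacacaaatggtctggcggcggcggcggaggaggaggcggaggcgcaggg
Fzd7 (chr9:68425288-68425587, plus strand): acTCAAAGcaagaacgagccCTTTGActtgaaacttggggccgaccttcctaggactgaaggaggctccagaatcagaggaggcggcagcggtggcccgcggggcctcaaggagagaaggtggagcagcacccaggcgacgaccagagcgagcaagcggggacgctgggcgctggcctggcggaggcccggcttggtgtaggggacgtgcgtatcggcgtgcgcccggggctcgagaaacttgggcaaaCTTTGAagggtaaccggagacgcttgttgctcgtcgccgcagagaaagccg

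Among these 5, the core was found in the promoter of Fzd7 alone, at 3 places. It was present in 4 of the 28 matched member promoters (14.3%), against 16.1% of all 33469 promoters of this length. A match describes letters in this window and is not a mapped binding site. The member promoters had a median CpG count of 25.5, against 7 over all promoters, and a median G and C content of 65.5%, against 51.7%. CpG counts of the printed promoters were 35 for Wnt2, 17 for Wnt16, 11 for Wnt10a, 24 for Fzd1 and 27 for Fzd7.

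Most of the 37 members above 0 in some library were at low to moderate levels. Of 44 members, 21 (47.7%) reached 1 FPKM or more in all 3 animals, against 40.7% of all genes in the tables. Each level was tested against 1 FPKM in a fit over all 18929 genes above 0 in some library (limma, moderated one-sample test of log2(FPKM + 0.1), Benjamini-Hochberg adjusted p under 0.05). Of the 37 members tested, 21 (56.8%) lay above 1 FPKM, against 64.4% of all genes tested, and 8 (21.6%) lay below it, against 23.2%. Both shares were near or under those of all genes. The other 8 tested members did not pass in either direction, and 7 were listed at 0 in every library. Without animal 39, 16 members lay above 1 FPKM, and Fzd1, Fzd6, Sfrp2, Wnt10a and Wnt5a no longer passed. Without animal 68, Fzd6 and Sfrp2 no longer passed and Wnt16 did, which left 20. Of the calls below 1 FPKM, Wnt2b was lost without animal 39, and Wnt6 was gained without animal 32. Rspo4 and Sfrp5, listed at 0 in animals 68 and 39, were not tested without animal 32. Wnt3a was gained without animal 68.

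**Figure D1:**
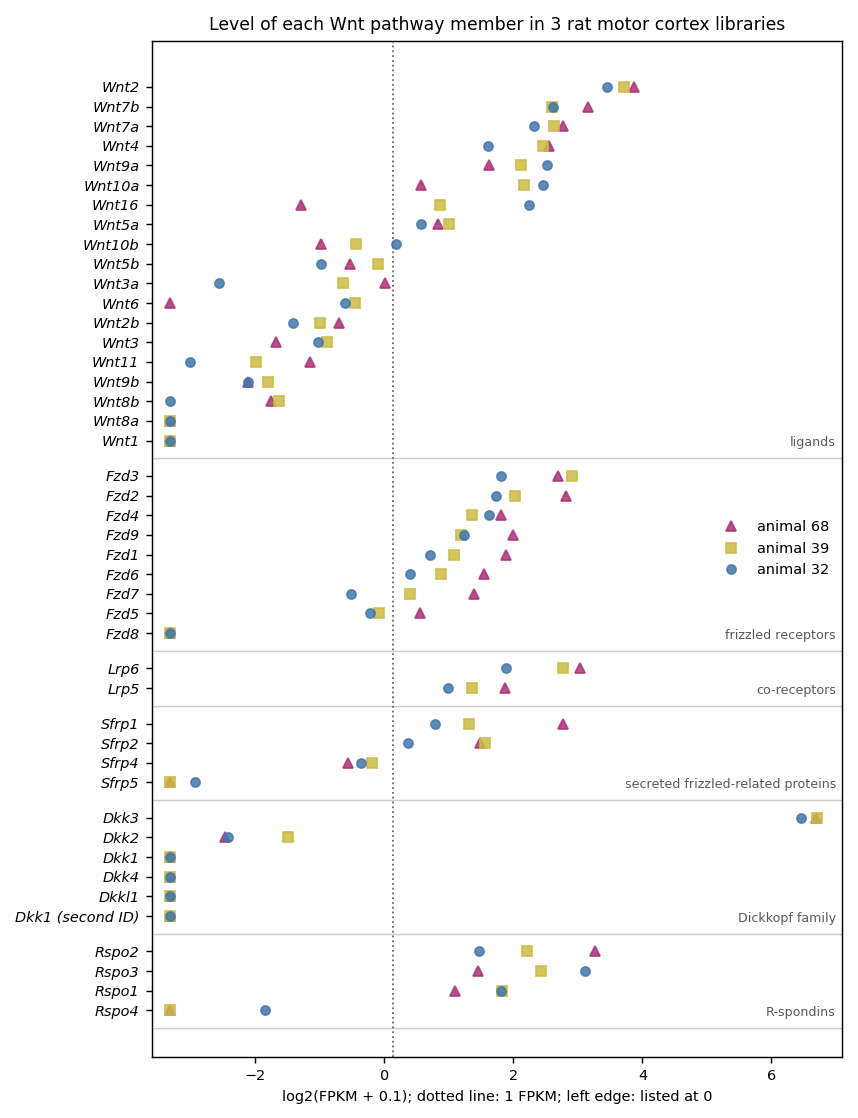
Level of all 44 members by role, as log2(FPKM + 0.1) on the horizontal axis, with 1 point per animal and the dotted line at 1 FPKM. Dkk3 stands furthest to the right at 88.2 to 104 FPKM, and the 7 members listed at 0 in every library sit at the left edge, where points overlie each other.

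Wnt2, a ligand that activates beta-catenin signalling, headed the ligands with 14.6, 13.0 and 10.9 FPKM in animals 68, 39 and 32 (12.8 ± 1.86, SD, n = 3). In Rnor_6.0 it spans chromosome 4, 45292437 to 45332420, on the minus strand. Its lowest library lay above every library of the next ligand, so its range met that of no other ligand. Wnt7b had 8.85, 5.94 and 6.03 FPKM (6.94 ± 1.66), and Wnt7a had 6.72, 6.06 and 4.87 FPKM (5.88 ± 0.937). These close relatives, known for brain vessel growth and, for Wnt7a, synapse assembly, overlapped in range. Wnt4, best known from kidney and gonad development, had 5.75, 5.39 and 2.95 FPKM (4.70 ± 1.52). Wnt9a, a ligand of joint development, had 2.97, 4.25 and 5.65 FPKM (4.29 ± 1.34). Wnt4 was lowest in animal 32 and Wnt9a in animal 68, and their ranges overlapped.

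Wnt10a, needed for tooth and hair formation, had 1.38, 4.38 and 5.37 FPKM (3.71 ± 2.08). Wnt16, a ligand with a role in cortical bone, had 0.307, 1.71 and 4.62 FPKM (2.21 ± 2.20). Wnt5a, the main ligand of beta-catenin-independent signalling, had 1.68, 1.89 and 1.38 FPKM (1.65 ± 0.257). From Wnt7b down to Wnt5a, every neighbour in this order overlapped the next. Wnt16 was the only ligand averaging above 1 FPKM that did not pass the test against 1 FPKM (log2 distance 0.46, SE 0.70, limma adjusted p = 0.556). For Wnt2 that distance was 3.54 (SE 0.11, adjusted p = 4.12e-06).

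The remaining ligands averaged under 1 FPKM. Wnt2b (0.395 ± 0.119 FPKM), Wnt3 (0.346 ± 0.120), Wnt11 (0.175 ± 0.165), Wnt9b (0.150 ± 0.0323) and Wnt8b, which had 0.194, 0.222 and 0 FPKM in animals 68, 39 and 32, passed as below that level (SD, n = 3). Wnt10b, Wnt5b (0.611 ± 0.216), Wnt3a (0.504 ± 0.419) and Wnt6 did not pass. Wnt10b, a ligand of bone and fat cell development, had 0.405, 0.637 and 1.03 FPKM and was highest in animal 32. Wnt3a, which supports hippocampal development, had 0.904, 0.541 and 0.0689 FPKM in animals 68, 39 and 32. Wnt6 was listed at 0 in animal 68, against 0.629 FPKM in animal 39 and 0.558 FPKM in animal 32. Wnt1, a midbrain organiser gene, and Wnt8a had 0 in every library. Genes needed by all cells (Hprt1, Rpl8 and Rps6) had the same value, and a listed 0 is therefore not read as absence.

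Several Wnt genes lie next to each other in the genome, an arrangement the choice by name did not use. With members at most 100 kb apart and no other listed gene between them, 4 pairs of Wnt genes were found in the Rnor_6.0 loci of the files. On chromosome 10, Wnt9a (45659143 to 45681393, plus strand) averaged 4.29 FPKM, against 0.504 FPKM for Wnt3a (45598912 to 45638035, minus strand), 21.1 kb away. On chromosome 9, Wnt10a (82053581 to 82066047) averaged 3.71 FPKM, against 0.396 FPKM for Wnt6 (82033543 to 82047166), 6.41 kb away on the same strand. In both pairs a ligand at a few FPKM sat beside a neighbour under 1 FPKM. On chromosome 7, Wnt10b averaged 0.690 FPKM and Wnt1, 10.7 kb away, was listed at 0. On chromosome 10, Wnt3 averaged 0.346 FPKM and Wnt9b, 22.7 kb away, 0.150 FPKM. No source used here says whether counting used strand, so fragments of overlapping or antisense transcripts cannot be told apart.

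Frizzled receptors were led by Fzd3, which guides axons, with 6.34, 7.39 and 3.39 FPKM in animals 68, 39 and 32 (5.71 ± 2.08, SD, n = 3). Fzd2 had 6.93, 3.96 and 3.22 FPKM (4.71 ± 1.96). Fzd4, the receptor for norrin in vessels, had 3.38, 2.46 and 2.96 FPKM (2.94 ± 0.459). Fzd4 varied least among the frizzled genes above 1 FPKM, and animal 39 was lowest. Fzd9 had 3.89, 2.18 and 2.24 FPKM (2.77 ± 0.968). Fzd1, a close relative of Fzd2 and Fzd7, had 3.60, 2.01 and 1.52 FPKM (2.38 ± 1.09). Fzd6, which orients hair follicles in mice, had 2.83, 1.74 and 1.22 FPKM (1.93 ± 0.820). Animal 68 was highest for each of these last 3 genes. Fzd7 had 2.51, 1.22 and 0.600 FPKM (1.44 ± 0.975), and Fzd5 had 1.37, 0.841 and 0.758 FPKM (0.989 ± 0.331). Fzd7 and Fzd5 did not pass the test against 1 FPKM, and each neighbour in the order from Fzd3 to Fzd7 overlapped the next.

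Fzd8 was listed at 0 in every library. A second gene, listed as AABR07028245.1 and described as Frizzled-8 in the tables, was also at 0. Dkk1 has 2 gene IDs, and both were at 0, so values of these duplicated entries are uncertain. No gene named Fzd10 was listed.

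The lower frizzled values rest on countable fragments. For a gene whose counted length equals its locus, FPKM converts back to fragments. Values of Fzd1, Fzd2, Fzd5, Fzd7 and Fzd9 came within 0.1 of a whole number of fragments in every library. Fzd7 was then 125 fragments in animal 68 (exact Poisson 95% interval 104 to 149), 53 in animal 39 (39.7 to 69.3) and 28 in animal 32 (18.6 to 40.5). The interval of animal 68 met neither of the others. Fzd1 had 280, 137 and 111 fragments, and Fzd2 had 234, 117 and 102. Fzd9 had 159, 78 and 86. For these 3 genes, too, the interval of animal 68 lay above those of animals 39 and 32, which overlapped each other. Fzd5 had 52, 28 and 27 fragments, and its interval in animal 68 (38.8 to 68.2) overlapped those of the others. Intervals cover counting error only and compare libraries, not groups, and fragments from PCR are not independent molecules.

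**Figure D2:**
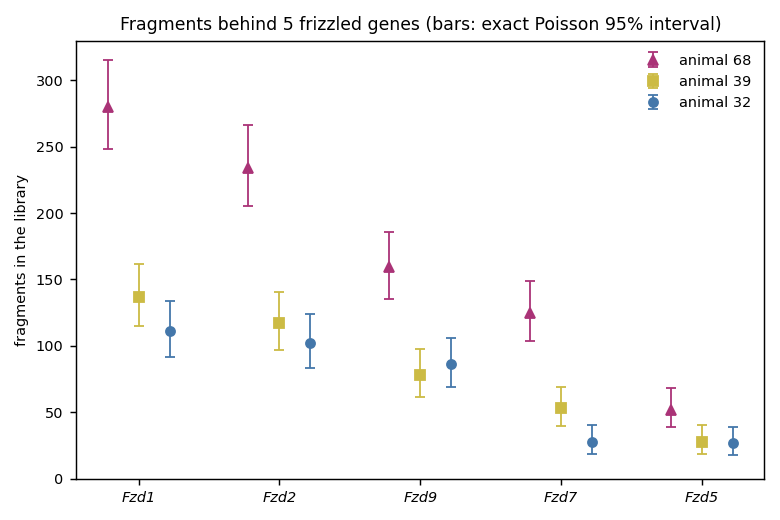
Fragments per library for the 5 frizzled genes with whole fragment counts, not divided by length or depth, with exact Poisson 95% intervals as bars. Animal 68 is highest for every gene, from 280 fragments of Fzd1 to 52 of Fzd5, and inferred depth was 17670986 fragments there, against 15460924 and 16550241 in animals 39 and 32.

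Of the co-receptors, Lrp6 had 8.07, 6.71 and 3.58 FPKM in animals 68, 39 and 32 (6.12 ± 2.30, SD, n = 3) and Lrp5 had 3.56, 2.47 and 1.88 FPKM (2.64 ± 0.850). Both were lowest in animal 32. Lrp6 exceeded Lrp5 in every library, its lowest value being 3.577 FPKM, against a highest value of 3.556 FPKM for Lrp5.

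Among the inhibitors, Dkk3 had the highest level. Dkk3 (chromosome 1, 176940693 to 176983045, minus strand) had 103, 104 and 88.2 FPKM in animals 68, 39 and 32 (98.7 ± 9.06, SD, n = 3). Its share of the summed Dickkopf level is not given, because 4 of the 6 entries in that sum are listed 0s, which are not read as absence. It ranked 620th of all genes by mean level, and no other member reached 15 FPKM. Dkk3 is the most divergent Dickkopf protein and is not known to block Lrp5 and Lrp6 as Dkk1 does. Dkk2, which acts on Lrp6, had 0.0802, 0.256 and 0.0855 FPKM, below 1 FPKM (limma adjusted p = 0.00154). Dkk1, Dkk4 and Dkkl1 were listed at 0 in all 3 libraries.

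Sfrp1, which binds Wnts outside the cell, had 6.75, 2.38 and 1.63 FPKM in animals 68, 39 and 32 (3.58 ± 2.77, SD, n = 3). Sfrp2 had 2.71, 2.84 and 1.19 FPKM (2.25 ± 0.920). Their order differed between animals, with Sfrp2 above Sfrp1 in animal 39 and below it in the others. Sfrp4 had 0.579, 0.771 and 0.675 FPKM and did not pass the test against 1 FPKM (limma adjusted p = 0.0854). Sfrp5 was listed at 0 in animals 68 and 39, against 0.0304 FPKM in animal 32.

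R-spondins, which amplify Wnt signals, were near equal in sum and unequal in makeup between animals. Rspo2 had 9.49, 4.53 and 2.66 FPKM in animals 68, 39 and 32, whereas Rspo3 had 2.63, 5.28 and 8.49 FPKM. Rspo2 exceeded Rspo3 in animal 68 and lay under it in animals 39 and 32, so the lead changed between animals. Rspo1 had 2.03, 3.45 and 3.40 FPKM (2.96 ± 0.809, SD, n = 3). Rspo4 was listed at 0 in animals 68 and 39, against 0.176 FPKM in animal 32. The summed R-spondin level was 14.1, 13.3 and 14.7 FPKM. Rspo2 took 67.1, 34.2 and 18.1% of it.

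A similar pattern held for the ligands and a different one for the receptors. The sums are over values as listed, with Wnt1, Wnt8a and Fzd8 at 0 in every library. Ligands summed to 45.5, 46.7 and 44.6 FPKM in animals 68, 39 and 32 (45.6 ± 1.05, SD, n = 3), with Wnt2 at 32.0, 27.9 and 24.4% of the sum. Frizzled receptors summed to 30.9, 21.8 and 15.9 FPKM (22.9 ± 7.52), and co-receptors to 11.6, 9.18 and 5.46 FPKM. Sfrp genes summed to 10.0, 5.99 and 3.52 FPKM. Ligand sums thus lay close together, while receptor, co-receptor and Sfrp sums were highest in animal 68 and lowest in animal 32.

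**Figure D3:**
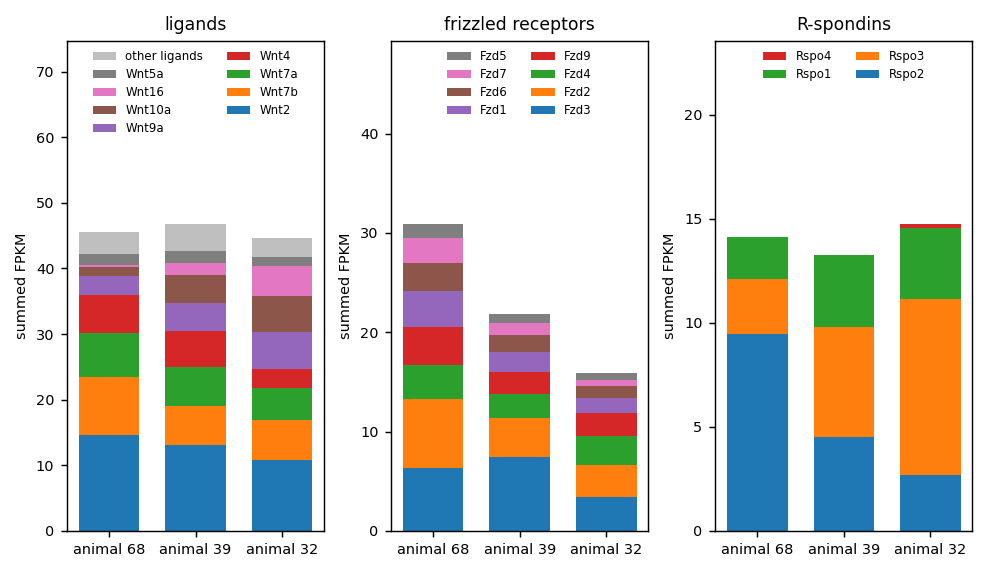
Summed FPKM of ligands, frizzled receptors and R-spondins in each animal (bars from 0), with colours for single genes and grey for ligands averaging under 1 FPKM. Ligand and R-spondin bars have like heights with different makeup, and frizzled bars run from 15.9 FPKM in animal 32 to 30.9 FPKM in animal 68.

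Differences between animals were read as ratios past 2-fold of FPKM + 0.1 among genes averaging at least 1 FPKM, with no test, since each animal has a single library. In animal 68 relative to 32, 8 of 23 members (34.8%) were more than 2-fold higher, against 9.77% of all 13378 genes, and 3 (13.0%) were more than 2-fold lower, against 3.05%. Among genes averaging 1 to 15 FPKM, the band that holds 22 of the 23 members, the shares were 13.0 and 3.39%. The higher members were Sfrp1 (3.96-fold), Fzd7 (3.73-fold), Rspo2 (3.47-fold), Fzd1 (2.28-fold), Lrp6 (2.22-fold), Fzd6 (2.22-fold), Sfrp2 (2.18-fold) and Fzd2 (2.12-fold). The lower ones were Wnt16, Wnt10a and Rspo3, which were 11.6-fold, 3.70-fold and 3.14-fold lower. With quantile scaling, 3 members were higher (Fzd7, Rspo2 and Sfrp1), against 6.62% of all genes under that scaling. Lower were 5 (Rspo1, Rspo3, Wnt10a, Wnt16 and Wnt9a), against 4.99% of all genes. Fzd7 and Wnt16 averaged above 1 FPKM through the animals where they were high, so these counts support nothing by themselves.

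Between the other animals fewer members differed. In animal 68 relative to 39, Rspo2 (2.07-fold) and Sfrp1 (2.77-fold) were more than 2-fold higher, with a background of 4.18%. Wnt10a and Wnt16 were lower, 3.03-fold and 4.46-fold, with a background of 1.97%. In animal 39 relative to 32, Fzd3 (2.15-fold) and Sfrp2 (2.29-fold) were higher, against 2.59% of genes, and Wnt16 was 2.60-fold lower, against 0.553%. With quantile scaling, Rspo2 was no longer past 2-fold between 68 and 39, where Rspo3 was then lower, nor were Fzd3 and Sfrp2 between 39 and 32. These 3 comparisons share libraries, so their counts are not independent.

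**Figure D4:**
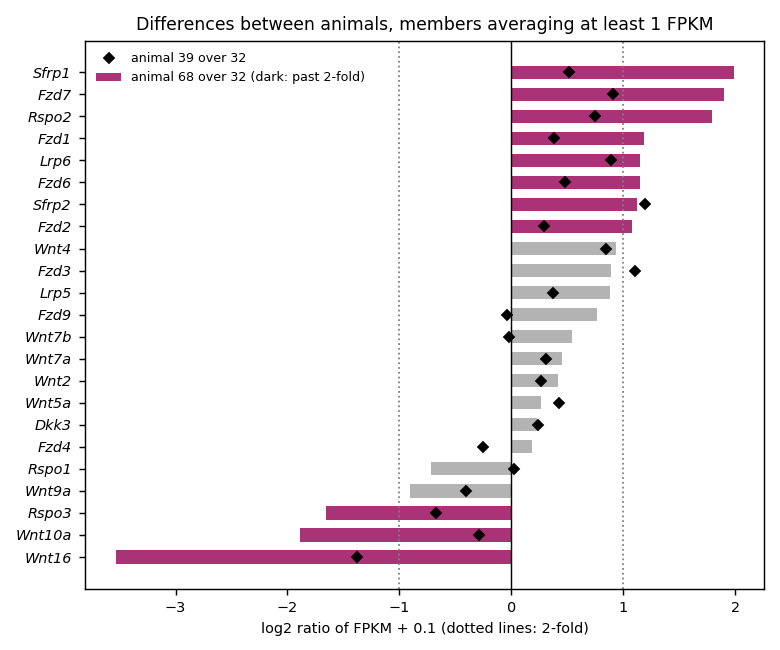
Log2 ratio of FPKM + 0.1 in animal 68 over 32 (bars) and in animal 39 over 32 (diamonds) for the 23 members averaging at least 1 FPKM. Sfrp1, Fzd7 and Rspo2 reach furthest to the right, and Wnt16, Wnt10a and Rspo3 furthest to the left.

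Markers of several cell types moved between the same animals. Oligodendrocyte genes summed to 8390, 4809 and 3124 FPKM in animals 68, 39 and 32, and all 6 were more than 2-fold higher in 68 than in 32. Astrocyte genes summed to 875, 435 and 272 FPKM (5 of 6 more than 2-fold higher), microglial genes to 88.2, 60.2 and 36.8 FPKM (4 of 6) and striatal genes to 259, 118 and 139 FPKM (6 of 8). These lists and that of the choroid plexus (7 of 7 more than 2-fold higher) were highest in the library where Sfrp1, Rspo2 and Fzd1, Fzd2, Fzd6 and Fzd7 were highest. None of the oligodendrocyte, astrocyte, microglial or striatal markers was at 0 in every library. Endothelial genes summed to 90.0, 90.0 and 94.0 FPKM (5 of 6 found) and mural genes to 81.3, 90.0 and 72.7 FPKM (6 of 6), with none more than 2-fold apart between animals 68 and 32. Meningeal and fibroblast genes (8 of 8 found, Col1a2 at 0) summed to 118, 58.1 and 44.3 FPKM. Within that list, 3 genes were more than 2-fold higher in 68 than in 32. These were the growth factor gene Igf2 (65.2, 17.1 and 11.3 FPKM), the receptor gene Pdgfra (23.3, 14.2 and 10.0 FPKM) and Lum, a gene of the extracellular matrix (4.19, 2.15 and 1.77 FPKM). The 2 that were more than 2-fold lower were Slc22a6, an anion transporter gene, with 0.658, 3.93 and 3.13 FPKM, and the retinoic acid synthesis gene Aldh1a2, with 1.73, 5.73 and 4.50 FPKM. Hippocampal genes (6 of 6 found, Fibcd1 at 0) summed to 15.2, 26.1 and 5.08 FPKM, with 4 more than 2-fold higher in 68 than in 32. Of these 4, Zbtb20 and Dsp were under 1 FPKM in every animal. Prox1 had 6.87, 6.62 and 2.71 FPKM, and C1ql2 had 7.01, 18.4 and 2.04 FPKM. GABAergic genes (6 of 6) summed to 317, 458 and 508 FPKM, with 2 more than 2-fold lower, Vip (7.44, 17.6 and 30.0 FPKM) and Pvalb (72.2, 110 and 149 FPKM). No pan-neuronal gene was more than 2-fold apart between these animals. The part of any of these cell types in the Wnt family values was not tested.

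Which of several close relatives predominates was read from the log2 ratio of FPKM + 0.1 within each animal, for 23 pairs of which 18 had both genes above 0 in some library. With 3 animals, the smallest p of an exact sign-flip permutation test is 0.25, so no test was made. The ratio had the same sign in all 3 animals for 13 of these 18 pairs and was past 2-fold in every animal for 8. Wnt2 over Wnt2b was 4.73 ± 0.15 on the log2 scale (SD, n = 3) and Wnt9a over Wnt9b was 4.10 ± 0.48. Wnt10a over Wnt10b was 2.14 ± 0.54 and Wnt5a over Wnt5b 1.33 ± 0.23. In each of these ligand pairs 1 member held most of the signal. Fzd1 over Fzd2 was -0.97 ± 0.06, the steadiest ratio of the 18, although both genes differed more than 2-fold between animals 68 and 32. Fzd3 over Fzd6 was 1.52 ± 0.46, Fzd2 over Fzd7 1.77 ± 0.43 and Lrp6 over Lrp5 1.15 ± 0.26. Wnt7a over Wnt7b (-0.22 ± 0.22), Wnt3 over Wnt3a (-0.14 ± 1.62), Fzd9 over Fzd4 (-0.12 ± 0.29), Sfrp1 over Sfrp2 (0.49 ± 0.77) and Rspo2 over Rspo3 (-0.01 ± 1.73) changed sign between animals. The added 0.1 understates ratios against low genes.

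The rest of the pathway was followed in lists of other genes, with the same test against 1 FPKM, which 64.4% of all genes tested passed as above and 23.2% as below. In the cytoplasmic beta-catenin branch, all 12 genes found of 14 lay above 1 FPKM, with a list median of 27.2 FPKM. Beta-catenin (Ctnnb1) had 108 ± 15.9 FPKM, the kinases Gsk3a and Gsk3b of the destruction complex 90.6 ± 10.6 and 34.6 ± 3.03 FPKM, and casein kinase Csnk1a1 76.4 ± 4.03 FPKM (SD, n = 3). None of these 12 genes was more than 2-fold apart between animals 68 and 32. Planar cell polarity genes lay above 1 FPKM in 6 of 8 cases, led by the cadherin Celsr2 (55.9 ± 1.36), Prickle2 (35.6 ± 2.09), Prickle1 (32.3 ± 4.36) and the formin Daam1 (16.6 ± 4.21). Celsr1 had 2.73, 0.966 and 0.577 FPKM in animals 68, 39 and 32 and did not pass.

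Nuclear factors lay above 1 FPKM in 9 of 10 cases, with Pygo2 (16.9 ± 1.44 FPKM), Bcl9 (12.7 ± 1.27) and Bcl9l (12.4 ± 0.446), co-activators of beta-catenin, and the co-repressor Tle3 (10.5 ± 0.727) highest. The TCF/LEF genes themselves were lower: Lef1 had 2.48 ± 0.509, Tcf7l2 2.08 ± 0.892, Tcf7l1 1.87 ± 0.155 and Tcf7 1.13 ± 0.257 FPKM, of which Tcf7 did not pass. Common targets lay above 1 FPKM in 6 of 8 cases. Nkd1 had 20.6, 12.1 and 9.26 FPKM in animals 68, 39 and 32, whereas the feedback inhibitor Axin2 had 6.90, 6.40 and 6.10 FPKM and differed little between animals. Nkd2, a relative of Nkd1 (2.27, 5.02 and 6.12 FPKM) was lowest in animal 68. Ccnd1, a cyclin gene, had 5.92, 4.25 and 3.07 FPKM, and Sp5 lay below 1 FPKM.

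Secretion and extracellular modulators lay above 1 FPKM in 12 of 18 cases, with Sost below it. Ndp and Kremen2 were listed at 0 and not tested, whereas the 64.4% of all genes covers tested genes only. Porcn, the enzyme that attaches the lipid to Wnts, had 22.6 ± 2.01 FPKM and the norrin co-receptor Tspan12 12.6 ± 3.66 FPKM (SD, n = 3). The Wnt carrier Wls had 17.3, 9.46 and 9.16 FPKM in animals 68, 39 and 32. The inhibitor gene Sostdc1 had 57.5, 4.29 and 0.0685 FPKM in animals 68, 39 and 32, and Draxin, an axon guidance gene, had 3.08, 0.566 and 0.117 FPKM. Both were highest in animal 68, the library highest in choroid plexus genes, and neither passed. Of the alternative and R-spondin receptors, 4 of the 8 found lay above 1 FPKM: the R-spondin receptor Lgr4 (13.0 ± 1.97 FPKM), the Wnt receptor kinase relative Ryk (12.9 ± 2.08), Rnf43 (5.55 ± 2.07) and Ptk7 (4.54 ± 1.36). Lgr5 (1.28 ± 0.317), Lgr6 (1.15 ± 0.181), Ror2 (0.715 ± 0.328) and Ror1 (0.543 ± 0.358) did not pass.

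**Figure D5:**
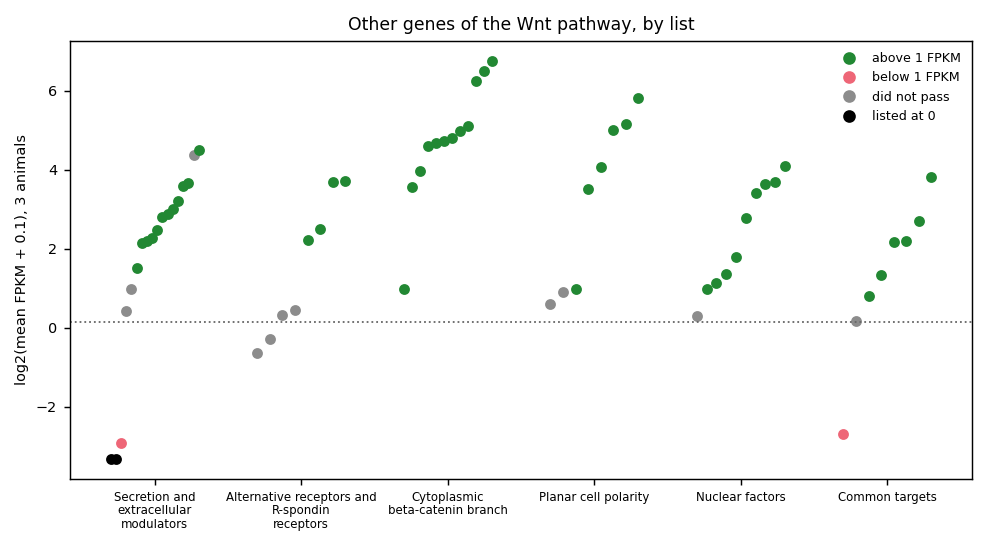
Mean level of the other pathway genes by list, as log2(mean FPKM + 0.1) over 3 animals, with colour for the outcome of the test against 1 FPKM (dotted line). The cytoplasmic beta-catenin branch sits highest with a median of 27.2 FPKM, and the receptors of the alternative and R-spondin list reach at most 13.0 FPKM.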

How the data were processed

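The deposited values are FPKM: the authors counted fragments for each gene, normalized them and computed FPKM in Perl, per the series' design text. The submitters' processing notes list HISAT2 2.0.4, StringTie 1.3.0 and Rnor_6.0, without roles. Annotation release and strandedness: not given in the sources used here. FPKM holds no counts, so no count test was run. Depth was inferred from genes with loci of up to 400 bases, of which 82.0, 86.6 and 85.0% in animals 68, 39 and 32 fell within 0.02 of a whole fragment. The depth was fitted on these same genes.

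Levels were tested against 1 FPKM with limma 3.58.1 in R 4.3.3 (log2(FPKM + 0.1), mean-dependent prior, Benjamini-Hochberg over 18929 genes, threshold 0.05). The test was also run on simulated data. All genes with a planted level had the same SD there, unlike these members, so no conclusion is drawn from that run. The rest used Python 3.11.15, pandas 2.3.3, numpy 2.4.6 and scipy 1.17.1. Alternatives changed the pseudocount, filter, scaling, prior and tested level, and left out each animal. A p-value here sets the distance of a mean level from the tested level against the spread between 3 libraries, moderated over all genes. That spread may be technical in part. Members and lists were chosen with earlier results of these data known. All members are named. Values per animal are given for members averaging at least 1 FPKM, or more than 2-fold apart between animals 68 and 32 with 1 FPKM in either. Of each pathway list up to 4 of the highest genes are named, with each more than 4-fold apart between animals 68 and 32. Further pathway genes and single marker genes were named after their values were seen. Promoter sequences are from RefSeq (GRCr8), and no GRCr8 coordinate was set against a Rnor_6.0 locus.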

Additional observations from a re-analysis of the deposited data

How the results depend on the processing

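No paired analysis was possible because the 3 libraries form a single group. Against 2 FPKM in place of 1, 12 members lay above and 14 below. With no filter on low values 15 lay below, which adds the 7 members listed at 0, and 15 above. Under the other settings the count above ran from 16 (without animal 39) to 23 (against 0.5 FPKM) and the count below from 6 to 11. Members at 1 FPKM or more in every animal numbered 21 to 22. The mean share of Rspo2 in the R-spondin sum was 26.1% without animal 68, against 39.8% over all 3. Members more than 2-fold higher in animal 68 than in 32 numbered 3 with a pseudocount of 1 (all genes: 6.52%), 3 with quantile scaling (6.62%) and 2 with a mean of at least 5 FPKM (5.99%), against 8 (9.77%). Those lower numbered 5 with quantile scaling (4.99%), 1 with a mean of at least 5 FPKM (2.48%) and 6 with no filter (5.46%), against 3 (3.05%), so the share of all genes moved with the setting too. The changed filters test other sets of genes; otherwise the cause was not tested. For ratios of related genes, changing the pseudocount, quantile scaling or leaving out an animal moved the mean ratio by its SD or more in 12 cases. In 96 cases the mean moved by less. A ratio with the same sign in every animal cannot reverse under these changes, so its sign was not tested by them. At about 16 fragments per kilobase for 1 FPKM, members under 1 FPKM rest on few fragments.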
